A study of Mus musculus with 22 samples.

Results

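Bidirectional promoters are stretches of DNA from which a pair of neighbouring genes is transcribed outwards in opposite directions. In mammals they are common, they usually lie in CpG islands, they often lack a TATA box, and they serve many housekeeping genes of DNA repair, mitochondria and translation. G-quadruplexes (G4s) are 4-stranded structures that guanine-rich DNA can fold into, and active promoters are a known place for them. ATRX is a chromatin remodeler that binds repeats and G4-prone DNA and takes part in heterochromatin marked by trimethylation of histone H3 at lysine 9 (H3K9me3). TERRA, the telomeric repeat-containing RNA, is itself G-rich and binds ATRX.

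The 806 bidirectional promoters described here were chosen from the RefSeq annotation of the mouse genome (GRCm38) alone. A pair of protein-coding genes on chromosomes 1 to 19 was kept when the genes pointed away from each other on opposite strands, did not overlap, and had transcription start sites (TSS, the most upstream start of a curated NM_ transcript) at most 1000 bp apart. The region of a pair ran from TSS to TSS plus 500 bp on each side. Among 20019 genes, 1602 (8%) belonged to such a pair, 10 genes belonged to more than 1 pair, and 20 of the 806 regions overlapped another. The comparison set was 18417 other protein-coding TSS, each with a window of 1157 bp that reached 656 bp upstream and 500 bp downstream, which together with the pairs made 19223 promoters.

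The cells were a mouse embryonic stem (ES) cell line of CAST/Ei x 129/Sv/Jae background, grown with LIF and collected 12 h after delivery of LNA gapmers (modified antisense oligonucleotides). The control group received scramble gapmers (scramble KD) and the other group gapmers against TERRA (TERRA KD). In each group, 2 libraries were made for each of ATAC-seq (open chromatin), G4 ChIP-seq with the BG4 antibody, ATRX ChIP-seq and H3K9me3 ChIP-seq, so there were 16 peak lists. A promoter was said to have a peak when at least 1 bp of its region lay under a peak called in that library at a p of 0.01. Both alleles of this hybrid line were read against 1 reference genome. The depth behind the lists was 5976014 to 7883648 tags for ATAC, 2961038 to 24588605 for G4, 4104486 to 15506154 for ATRX and 5435286 to 13898785 for H3K9me3, and a promoter without a peak is one where enrichment was not detectable at that depth. The ES cell label was checked by ATAC peaks, which stood at Sox2, Zfp42 and Klf4 in 4 of 4 lists, at Pou5f1 and Nanog in 3, and at the most upstream TSS of Esrrb in 0. At Alb, Ins2, Myh6, Gfap and Krt14, which mark other cell types, no list had an ATAC peak, and at Cd3e 1 list did.

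The G4 list of TERRA KD replicate 2 stood apart from the other G4 lists before any comparison. It held 225024 peaks, more than 2 of the other 3 lists, yet peaks lay at 7.51% of the 7896 CpG-rich other TSS and at 24.6% of the 10521 CpG-poor ones, whereas the other 3 lists had peaks at 66.1% to 70.5% of the CpG-rich and 22.8% to 55.7% of the CpG-poor ones. Mean differences in G4 peaks and the counts of pairs by condition are therefore given with and without it, a choice made after the data were seen, and other G4 values are given list by list. Both scramble KD G4 lists were called against inputs of the same number of tags (23359214), and so were both TERRA KD G4 lists (19824848).

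The TSS of a pair were close together. The distance ran from 1 to 1000 bp, with a median of 156 bp and quartiles of 75 and 302 bp, and 268 pairs (33.3%) lay within 100 bp, 335 (41.6%) above 100 and up to 300 bp and 203 (25.2%) farther apart. The shortest distances belonged to Capza1/St7l (1 bp), Tcta/Rhoa (1 bp), Snx5/Mgme1 (2 bp), 2810004N23Rik/Gnpat (4 bp) and Kars/Terf2ip (5 bp). Rhoa is a small GTPase of the cytoskeleton, Mgme1 a mitochondrial exonuclease, Kars a tRNA synthetase and Terf2ip the Rap1 subunit of the telomere-binding shelterin complex. The choice at 1000 bp cut through few pairs, since 11 lay above 900 and up to 1000 bp and 15 above 1000 and up to 1100 bp. Those 11 just inside had ATAC peaks in 81.8%, 100%, 100% and 100% of cases in scramble KD 1 and 2 and TERRA KD 1 and 2, and the 15 just outside in 93.3% in every list. For G4 the same shares were 63.6%, 90.9%, 63.6% and 18.2% inside and 66.7%, 73.3%, 66.7% and 33.3% outside.

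By sequence, bidirectional promoters were CpG-rich and held ETS letters more often than other promoters. Of the 806 regions, 691 (85.7%) were CpG-rich (at least 50% GC and an observed to expected CpG ratio of at least 0.6), against 7896 (42.9%) of the other TSS. In windows of 1000 bp the median GC content was 60.5% against 55.5%, and the median CpG ratio 0.782 against 0.57, while the CpG-rich other TSS had 62.5% and 0.798. Motifs were searched as fixed letters on both strands in the same windows. The ETS core CCGGAAGT was in 19.5% of bidirectional promoters, 6.56% of other TSS, 10.8% of CpG-rich other TSS and 7.1% of all promoters. The YY1 core AAGATGGC was in 15%, 7.32%, 9.78% and 7.64%, and the NRF1 core GCATGCGC, which overlaps its own reverse complement, in 10.2%, 5.09%, 8.47% and 5.31%. The TATA box letters TATAAA were rarer, in 14% of bidirectional promoters, 31.7% of other TSS, 17.4% of the CpG-rich ones and 30.9% of all promoters. The short NF-Y letters CCAAT were in 68%, 69.8%, 62.3% and 69.8%. A G4 motif, taken as 4 runs of at least 3 G with 1 to 7 bases between runs, was in 52.6% of bidirectional promoters and 45.5% of other TSS, but in 65.4% of the CpG-rich other TSS and 45.8% of all promoters. A match is a description of letters and not evidence that a factor was bound.

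The stretches between the TSS of 11 pairs on which the results below turn are printed from RefSeq GRCm38, plus strand, 5′ to 3′, so that the gene named first runs off to the left and the gene named second to the right. Capitals mark a G4 motif (runs of G, or runs of C where the motif is on the minus strand) or an ETS, NRF1 or YY1 core on either strand. Brca1/Nbr1 (chr11:101551956-101552106) and Mrps12/Sars2 (chr7:28741822-28741967) are textbook pairs without such a match. Ranbp1/Trmt2a (chr16:18248695-18248882) holds a G4 motif on the minus strand and an NRF1 core, and Eif3i/Tmem234 (chr4:129600649-129600679) packs an ETS core into a stretch of 31 bp.
Brca1/Nbr1: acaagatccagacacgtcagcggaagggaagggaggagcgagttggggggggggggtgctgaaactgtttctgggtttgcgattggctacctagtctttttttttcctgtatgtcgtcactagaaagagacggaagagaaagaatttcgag
Mrps12/Sars2: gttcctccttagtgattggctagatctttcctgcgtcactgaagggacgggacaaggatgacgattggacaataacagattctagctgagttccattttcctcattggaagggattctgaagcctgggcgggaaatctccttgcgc
Ranbp1/Trmt2a: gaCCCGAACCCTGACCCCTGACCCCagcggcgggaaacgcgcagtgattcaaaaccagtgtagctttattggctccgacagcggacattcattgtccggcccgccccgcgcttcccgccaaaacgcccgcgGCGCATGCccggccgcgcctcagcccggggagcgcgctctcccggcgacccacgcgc
Eif3i/Tmem234: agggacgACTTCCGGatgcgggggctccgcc

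The next are the 3 pairs with an ATRX peak in both TERRA KD lists and in neither scramble KD list, Mad1l1/Nudt1 (chr5:140321553-140321621), Cc2d1a/4930432K21Rik (chr8:84147918-84148037) and the histone pair H2ac24/H4bc24 (chr13:21833476-21833742), followed by Miip/Fv1 (chr4:147868720-147868978), which had an H3K9me3 peak in every list. In Cc2d1a/4930432K21Rik the NRF1 letters overlapped on both strands, and the other 3 stretches held none of these motifs.
Mad1l1/Nudt1: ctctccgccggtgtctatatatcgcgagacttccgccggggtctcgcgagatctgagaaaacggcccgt
Cc2d1a/4930432K21Rik: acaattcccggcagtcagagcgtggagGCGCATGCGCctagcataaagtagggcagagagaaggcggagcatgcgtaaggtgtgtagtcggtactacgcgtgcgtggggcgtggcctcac
H2ac24/H4bc24: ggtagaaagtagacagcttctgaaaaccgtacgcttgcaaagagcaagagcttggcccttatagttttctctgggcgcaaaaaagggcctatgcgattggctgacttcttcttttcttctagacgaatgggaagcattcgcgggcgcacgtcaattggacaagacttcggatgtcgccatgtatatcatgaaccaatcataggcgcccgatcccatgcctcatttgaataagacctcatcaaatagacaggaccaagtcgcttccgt
Miip/Fv1: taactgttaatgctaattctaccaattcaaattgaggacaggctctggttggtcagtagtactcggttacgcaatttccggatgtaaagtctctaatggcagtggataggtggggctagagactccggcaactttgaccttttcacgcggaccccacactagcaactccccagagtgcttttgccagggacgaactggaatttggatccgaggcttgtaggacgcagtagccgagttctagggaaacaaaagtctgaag

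The last are stretches of pairs whose regions differ in G4 and ATAC peaks. Pign/Relch (chr1:105663677-105663860) holds a G4 motif and had G4 peaks in both scramble KD lists and in neither TERRA KD list, and Lrrc63/Lcp1 (chr14:75130884-75131122) holds 4 G4 motifs and had G4 peaks in both TERRA KD lists and in neither scramble KD list. Rfng/Gps1 (chr11:120784205-120784269) holds a G4 motif and had G4 peaks in all 4 lists and no ATAC peak in any. Peaks were called over the regions with their 500 bp sides, and the G4 summits lay outside the printed stretches. They were at 346 and 578 bp from the midpoint at Pign/Relch, and at −409 and −411 bp, with 12 and 11 tags, at Lrrc63/Lcp1. Those of the best peaks at Rfng/Gps1 are given below.
Pign/Relch: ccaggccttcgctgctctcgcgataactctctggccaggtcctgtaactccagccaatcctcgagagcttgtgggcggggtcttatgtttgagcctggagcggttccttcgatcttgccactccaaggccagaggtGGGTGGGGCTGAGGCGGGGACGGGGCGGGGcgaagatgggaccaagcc
Lrrc63/Lcp1: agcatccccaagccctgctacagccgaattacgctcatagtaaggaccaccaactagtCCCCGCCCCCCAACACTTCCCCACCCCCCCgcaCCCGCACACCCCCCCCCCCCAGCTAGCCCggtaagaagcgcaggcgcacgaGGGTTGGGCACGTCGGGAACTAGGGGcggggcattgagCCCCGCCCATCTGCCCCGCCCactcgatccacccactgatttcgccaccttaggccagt
Rfng/Gps1: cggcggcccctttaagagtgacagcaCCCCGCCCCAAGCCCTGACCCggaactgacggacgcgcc

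Nearly all bidirectional promoters had an ATAC peak. The 4 lists had a peak at 772 (95.8%) and 788 (97.8%) of the 806 in scramble KD replicates 1 and 2 and at 785 (97.4%) and 789 (97.9%) in TERRA KD replicates 1 and 2. Other TSS had one in 60.3%, 64.8%, 63.7% and 65.5% of cases. The mean difference was 33.6 points, higher in 4 of 4 lists, with an exact two-sided sign-flip permutation p of 0.13, the smallest that 4 lists allow (adjusted p = 0.643 by Benjamini-Hochberg over 12 tests). Against the CpG-rich other TSS, whose shares were 92.2%, 96.5%, 94.8% and 96.8%, the difference was 2.12 points and was again positive in every list. When both sides were held to CpG-rich promoters, a comparison added after the data were seen, it was 3.97 points (99.1% on average at the 691 CpG-rich pairs). The 115 CpG-poor pairs had ATAC peaks in 80.9%, 88.7%, 87% and 87.8% of cases, against 36.5%, 41.1%, 40.3% and 42% of the CpG-poor other TSS.

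**Figure D1:**
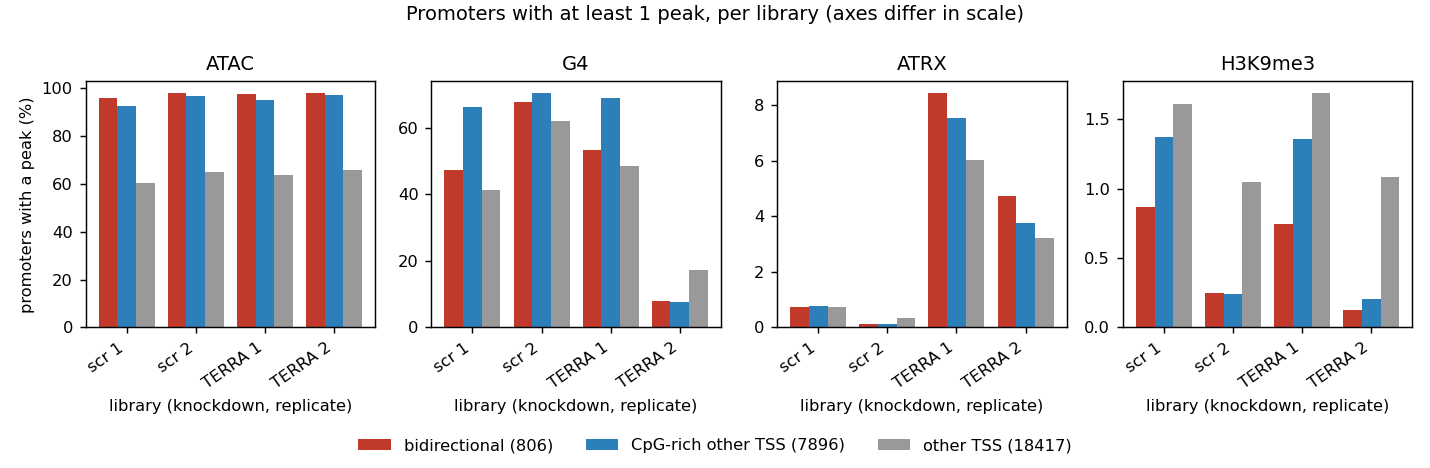
Share of promoters (%) with at least 1 peak in each of the 16 lists, for the 806 bidirectional promoters, the 7896 CpG-rich other TSS and all 18417 other TSS, where each bar is 1 library. Bidirectional promoters stand above other TSS for ATAC in every list, and the G4 list of TERRA KD replicate 2 is low for all 3 sets.

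In most cases a single ATAC peak spanned both TSS. This held for 648 (80.4%) and 685 (85%) of the pairs in scramble KD and for 674 (83.6%) and 701 (87%) in TERRA KD. By distance the share was 87.3% to 92.9% over the 4 lists for pairs within 100 bp, 86% to 91.3% above 100 and up to 300 bp and 62.1% to 71.9% beyond 300 bp. Separate peaks over each TSS were found at 3, 1, 5 and 6 pairs. A TSS of the comparison set was under an ATAC peak in 46.1% to 53.5% of cases, and in 69.5% to 79% when CpG-rich.

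ATAC peaks of bidirectional promoters were also strong within their own lists. The median of the best peak at a bidirectional promoter fell in the top 9.06% and 7.13% of the list in scramble KD and in the top 7.85% and 6.54% in TERRA KD. At other TSS with a peak these medians were 23.3%, 18.5%, 19.7% and 17.1%, and at the CpG-rich ones 19.8%, 15.1%, 16.2% and 13.7%. Median peak length was 860 to 988 bp at bidirectional promoters and 741 to 851 bp at other TSS. Rank and length were higher at bidirectional promoters in every list, and were not tested.

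The summits of the ATAC peaks gathered between the TSS. Over the 538 pairs with TSS more than 100 bp apart, summits lay there at 1.63 and 1.5 per kb in scramble KD and 1.57 and 1.5 per kb in TERRA KD. On the 500 bp gene sides the densities were 0.484, 0.512, 0.501 and 0.531 per kb, so the ratio was 2.84 to 3.36. The difference, 1.04 summits per kb, had the same sign in 4 of 4 lists (exact sign-flip permutation p = 0.13). At CpG-rich other TSS, the nearest 156 bp upstream against the 500 bp downstream gave a ratio of 1.45 to 1.57.

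The pairs with no ATAC peak in any list numbered 13 (1.61%), against 31.6% of other TSS and 1.76% of the CpG-rich ones. In order of distance, those named are Best1/Rab3il1, Rfng/Gps1, Wfdc8/Wfdc6b, Il11/Tmem190, Tmem176b/Tmem176a, Ifit1bl2/Ifit1 and Ngef/Neu2. Best1 is a chloride channel of the retinal epithelium, Il11 a cytokine and Ifit1 an interferon-induced protein. Their regions were poor in CpG (ratios of 0.0964 to 0.218) apart from Rfng/Gps1, with a GC content of 74.1% and a CpG ratio of 0.984, where Gps1 encodes a subunit of the COP9 signalosome. All 7 named pairs had a G4 peak in at least 2 lists, always including scramble KD replicate 2, the longest list. Sncg/Mmrn2, another of the 13, had one in that list only. Over all 806 pairs a G4 peak was present in 47.4%, 67.6%, 53.3% and 7.82% of cases in scramble KD 1 and 2 and TERRA KD 1 and 2.

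ATAC peaks at bidirectional promoters differed less between TERRA KD and scramble KD than between the scramble KD libraries. The share in TERRA KD was 1.61 points higher in replicate 1 and 0.124 points higher in replicate 2, a mean difference of 0.868 points (exact two-sided permutation p = 0.667, adjusted p = 0.667, smallest possible p 0.33). The difference turned to −0.124 points without scramble KD replicate 1. A peak stood in all 4 lists at 771 pairs, in both TERRA KD lists and in neither scramble KD list at 1 pair (0.124%, against 0.603% of all 19223 promoters), and in the opposite pattern at 0 pairs (against 0.198%). The 1 pair was Thap4/Atg4b, which encodes a zinc-binding protein and an autophagy protease, and was named after its values were seen. Its best peaks ranked in the top 42.9% and 31.5%, with summits outside the region at −857 and −807 bp from the midpoint, where minus is to the left. TERRA KD replicate 1 had 2 peaks at this pair, and the summit of the other is not given. The change at bidirectional promoters minus the change at other TSS was −1.15 points (−1.73 and −0.571 in the replicates, exact permutation p = 0.667) and turned to 0.101 points without scramble KD replicate 1.

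G4 peaks were found at many bidirectional promoters in 3 lists and at few in the fourth. The lists held a G4 peak at 382 (47.4%) and 545 (67.6%) of the 806 in scramble KD replicates 1 and 2, at 430 (53.3%) in TERRA KD replicate 1 and at 63 (7.82%) in TERRA KD replicate 2. Other TSS had one in 41.4%, 62%, 48.5% and 17.3% of cases. The mean difference was 1.75 points (exact sign-flip permutation p = 0.625), with bidirectional promoters higher in 3 of 4 lists and −9.48 points apart in TERRA KD replicate 2, and it was 5.49 points without that list (exact permutation p = 0.25, the smallest that 3 lists allow). Leaving out scramble KD replicate 1, scramble KD replicate 2 or TERRA KD replicate 1 instead gave 0.33, 0.466 and 0.707 points. The difference turned to −3.4 points at a −log10 p of at least 5 (−3.41 without TERRA KD replicate 2) and to −1.61 points with equal numbers of top-ranked peaks (−0.0174 without that list).

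When the comparison was narrowed to CpG-rich other TSS, the difference in G4 peaks went the other way. Base composition was not matched beyond that threshold, with a median GC content of 60.5% at the pairs and 62.5% at these TSS. The CpG-rich other TSS had a G4 peak in 66.1%, 70.5%, 68.8% and 7.51% of cases, and the mean difference of bidirectional promoters from them was −9.17 points (exact sign-flip permutation p = 0.25, lower in 3 of 4 lists), and −12.3 points without TERRA KD replicate 2. With both sides CpG-rich, an alternative chosen after the data were seen, the pairs had 50.2%, 66.7%, 54.1% and 4.92%, lower than the CpG-rich other TSS in 4 of 4 lists. The mean difference was then −9.22 points (exact permutation p = 0.13, the smallest possible), and −11.4 points without TERRA KD replicate 2. The G4 motif itself was less common at bidirectional promoters than at these CpG-rich TSS, as given above, and its part in the difference was not tested.

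Positions differed as well as shares. At CpG-rich other TSS the cover by G4 peaks was highest on the gene side, with 55.2%, 64.6% and 64.2% of them under a peak 300 bp downstream in scramble KD 1 and 2 and TERRA KD 1. At bidirectional promoters, which have a gene on either side, 26.2%, 51.4% and 32.4% were under a peak 300 bp to the right of the midpoint and 25.8%, 48.4% and 36.1% 300 bp to the left, with 23.6%, 52% and 31.9% at the midpoint itself. In TERRA KD replicate 2 the values at 300 bp were 4.96% for the CpG-rich TSS and 3.6% and 4.09% to the right and left for the pairs. A single G4 peak spanned both TSS at 157 (19.5%), 354 (43.9%), 210 (26.1%) and 22 (2.73%) of the pairs.

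**Figure D2:**
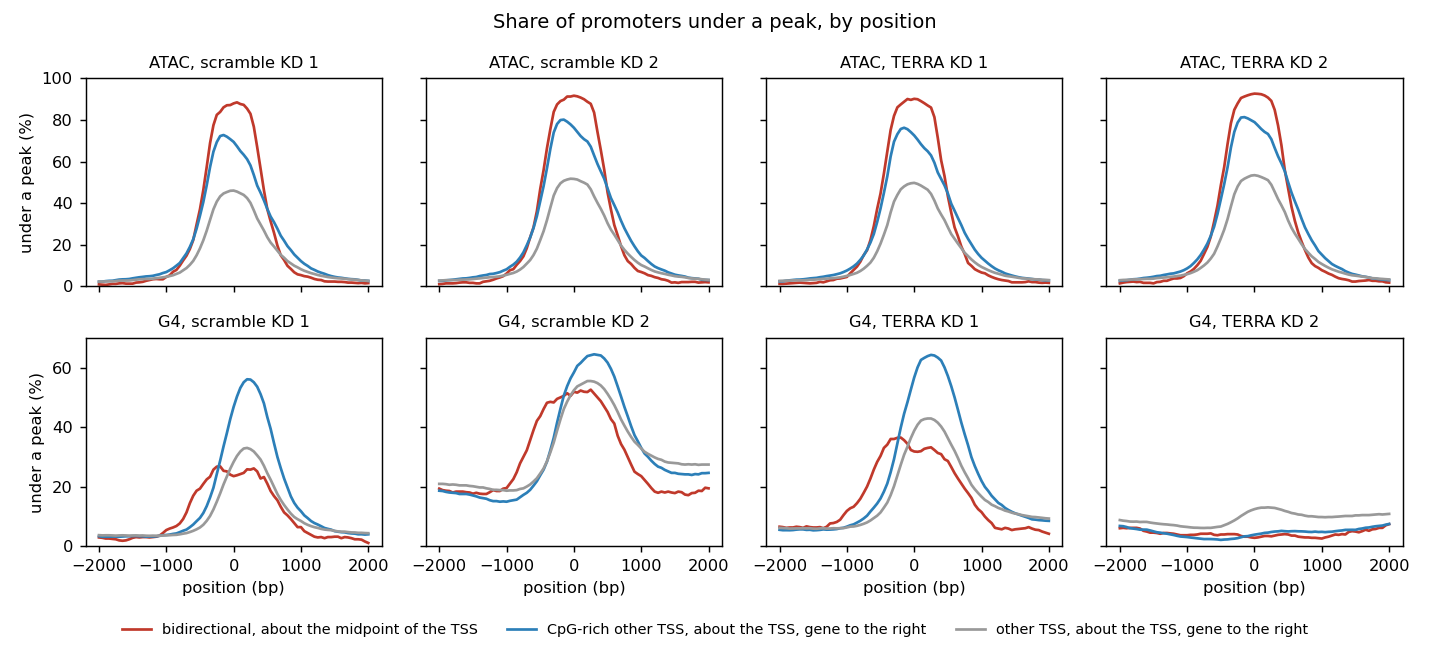
Share of promoters (%) under an ATAC peak (upper row) or a G4 peak (lower row) by position in bp, 1 panel per library, with bidirectional promoters drawn about the midpoint of their TSS and other TSS about the TSS with the gene to the right. ATAC cover is centred at the pairs and reaches 88% to 92.7% at the midpoint, whereas G4 cover of the pairs at the midpoint (23.6%, 52%, 31.9% and 2.85%) is close to that at 300 bp on either side and G4 cover of the CpG-rich TSS is higher on the gene side.

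G4 summits were sparser between the TSS than beside them. For the 538 pairs more than 100 bp apart, summits lay between the TSS at 0.165 and 0.135 per kb in scramble KD and at 0.0823 and 0.0118 per kb in TERRA KD, and on the gene sides at 0.404, 0.469, 0.441 and 0.039 per kb. The density between the TSS was thus 0.186 to 0.407 of that on the gene sides, lower in 4 of 4 lists, with a mean difference of −0.24 summits per kb (exact sign-flip permutation p = 0.13) and of −0.311 without TERRA KD replicate 2. The last list rests on 2 summits between the TSS and 21 outside. At CpG-rich other TSS the ratio of the nearest 156 bp upstream to the 500 bp downstream was 0.47, 0.366, 0.315 and 0.558, again over stretches of unlike length. G4 motifs were distributed the other way, with 209 motifs between the TSS of these pairs (1.23 per kb) and 379 on the gene sides or across a TSS (0.703 per kb), at a GC content of 59.6% and 59.2%.

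**Figure D3:**
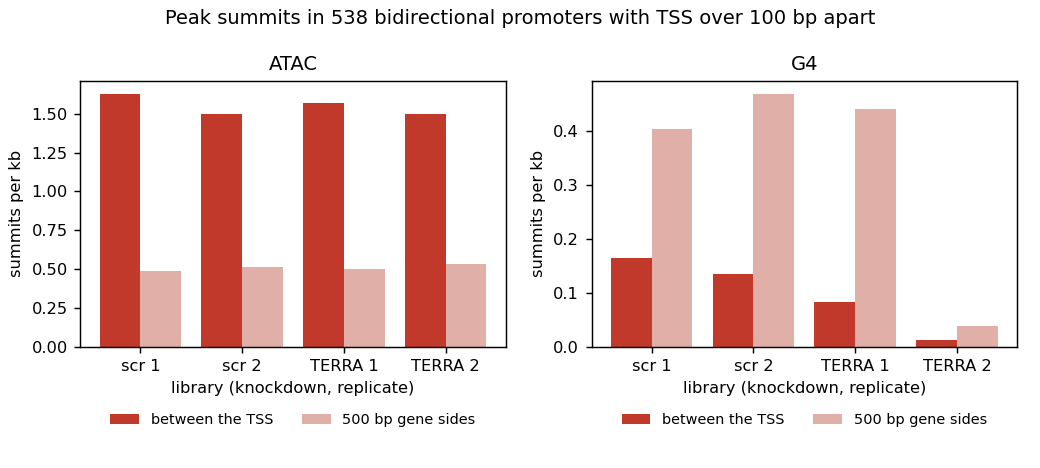
Peak summits per kb between the TSS (dark) and on the 500 bp gene sides (light) of the 538 bidirectional promoters with TSS over 100 bp apart, for ATAC (left) and G4 (right), each bar 1 library. ATAC summits are denser between the TSS in all 4 libraries, and G4 summits denser on the gene sides in all 4.

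G4 peaks went with the motif in 3 lists. A motif in the region marked 456 pairs (56.6%), and these had a G4 peak in 57%, 72.4% and 64.3% of cases in scramble KD 1 and 2 and TERRA KD 1, against 34.9%, 61.4% and 39.1% of the 350 pairs without one. In TERRA KD replicate 2 the shares were 7.46% and 8.29%. Motifs on both strands, at 119 pairs, went with 66.4%, 75.6%, 77.3% and 9.24%. Among bidirectional promoters with an ATAC peak, a G4 peak was present at 47.3%, 67.1%, 52.9% and 6.59%, and among the 34, 18, 21 and 17 without one, at 50%, 88.9%, 71.4% and 64.7%.

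The pairs with a G4 peak in all 4 lists numbered 34 (4.22%), against 6.96% of other TSS and 5.1% of the CpG-rich ones. No G4 peak in any list was found at 146 (18.1%), against 26.2% and 9.93%. Ordered by their weakest rank, those named are Rfng/Gps1, Pcnx3/Map3k11, Ctnnd1/Btbd18 and Atf5/Nup62. Ctnnd1 encodes the p120 catenin of cell junctions, Atf5 a stress-responsive transcription factor, Nup62 a nuclear pore protein and Map3k11 a kinase upstream of JNK. At Pcnx3/Map3k11 the best G4 peaks ranked in the top 12.2%, 0.151%, 0.223% and 33.9%. All 4 of their summits lay outside the region, at 681, −4937, 3470 and 1892 bp from the midpoint, in long peaks that ran into it. Scramble KD 1 and 2 and TERRA KD 1 held 2 peaks each at this pair, and the summit of the other is not given. The same limit held for the best peaks at Atf5/Nup62, with summits at −824, −628, −840 and −868 bp. All but that of scramble KD replicate 2 lay outside the region. At Rfng/Gps1 the best peaks had summits at 531, −3022, −297 and −1686 bp, with those of both second replicates outside.

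Matched by replicate number, the G4 difference between TERRA KD and scramble KD had opposite signs, 5.96 points in replicate 1 and −59.8 points in replicate 2. The numbers were not taken as pairing the samples, so these signs do not show that replicates disagreed. Of the TERRA KD shares, 53.3% lay between the scramble KD shares of 47.4% and 67.6%, and 7.82% lay below both. The mean difference was −26.9 points (exact two-sided permutation p = 0.667, adjusted p = 0.667), and −4.16 points without TERRA KD replicate 2. With equal numbers of top-ranked peaks it was −14.6 points, and 2.92 points without that list. The change at bidirectional promoters minus that at other TSS was −8.1 points (−1.13 and −15.1 in the replicates, exact permutation p = 0.33, the smallest possible, adjusted p = 0.643). It was −0.926 points without TERRA KD replicate 2, and −2.07 points at a −log10 p of at least 5 (−3.13 without that list). Against the CpG-rich other TSS it was 3.23 points, which turned to −4.63 points without TERRA KD replicate 2, and with both sides CpG-rich it was 1.21 and −4.82 points.

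A G4 peak in both scramble KD lists and in neither TERRA KD list was found at 74 pairs (9.18%), against 5.35% of all promoters and 8.71% of the CpG-rich other TSS. The reverse pattern was found at 3 pairs (0.372%, against 0.213%), Ccdc115/Imp4, Ppcs/Zmynd12 and Lrrc63/Lcp1, the last of which includes L-plastin, an actin-bundling protein. In TERRA KD replicate 2 their peaks ranked only in the top 98.5%, 83.4% and 85.6% of the list, in this order. That count is given only with this list included. At Ccdc115/Imp4 both summits lay outside the region, at −598 and −736 bp. Leaving out TERRA KD replicate 2 left 77 pairs with a peak in both scramble KD lists and none in TERRA KD replicate 1, while leaving out TERRA KD replicate 1 gave 280, so that the count rests on the 77 that lacked a peak in TERRA KD replicate 1. At a −log10 p of at least 5 the count was 35 (37 without TERRA KD replicate 2), and with equal numbers of top-ranked peaks 31 (33 without that list).

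The 10 pairs named from these 74, ordered by the weaker scramble KD rank, were Inca1/Kif1c, Ubxn6/Hdgfl2, Pign/Relch, Cnppd1/Retreg2, Mob3a/Izumo4, Eif3i/Tmem234, Tfb2m/Cnst, Utp15/Ankra2, Dido1/Gid8 and Mmp11/Chchd10. Kif1c is a kinesin motor, Pign an enzyme of GPI-anchor synthesis, Eif3i a subunit of translation initiation factor 3, Tfb2m a mitochondrial transcription factor, Utp15 a factor of ribosomal RNA processing and Mmp11 a matrix metalloproteinase. At Inca1/Kif1c the scramble KD peaks ranked in the top 11.6% and 16.7% of their lists with 15 and 56 tags. At Dido1/Gid8 they ranked in the top 37.1% and 44.4% with 6 and 33 tags. Over the 10 pairs the ranks ran from 11.6% to 44.5%, and the summits lay inside the regions apart from that of Ubxn6/Hdgfl2 in scramble KD replicate 2, at 1511 bp. ATAC peaks stood at all 10 pairs in both TERRA KD lists, where 97.4% and 97.9% of all 806 pairs had one. Mmp11/Chchd10 had no ATAC peak in scramble KD replicate 1. At Cnppd1/Retreg2 an ATRX peak of 4 tags, in the top 48.8%, was present in TERRA KD replicate 1, where 8.44% of all pairs had one.

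ATRX peaks were rare at bidirectional promoters of scramble KD cells and more frequent in TERRA KD cells. The lists held one at 6 (0.744%) and 1 (0.124%) of the 806 in scramble KD and at 68 (8.44%) and 38 (4.71%) in TERRA KD. The groups did not overlap. The share was higher in TERRA KD by 7.69 points in replicate 1 and 4.59 points in replicate 2, a mean difference of 6.14 points (exact two-sided permutation p = 0.33, the smallest possible with 2 against 2, adjusted p = 0.643). The lists themselves were longer in TERRA KD (41384 against 7321 peaks for the first replicate, 21718 against 13652 for the second), and with equal numbers of top-ranked peaks the difference was 0.806 points (exact permutation p = 0.667). At a −log10 p of at least 5 it was 0.062 points.

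Other promoters differed in the same direction by less. Other TSS had an ATRX peak in 0.728%, 0.353%, 6.03% and 3.23% of cases, so the change at bidirectional promoters was larger by 2.05 points (2.39 and 1.71 in the replicates, exact permutation p = 0.33, the smallest possible). Against the CpG-rich other TSS, with 0.773%, 0.139%, 7.55% and 3.74%, it was larger by 0.955 points. Against all other TSS the difference of changes was 0.288 points with equal numbers of top-ranked peaks and −0.0574 points at a −log10 p of at least 5. Over all 4 lists the share at bidirectional promoters was 0.919 points above that at other TSS (exact sign-flip permutation p = 0.375, higher in 3 of 4 lists). Without TERRA KD replicate 1 this was 0.424 points, with equal numbers of top-ranked peaks 0.122 and at a −log10 p of at least 5 −0.0369.

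The ATRX peaks of the TERRA KD lists were weak and seldom at the same pairs. Their median −log10 p was 2.37 in both lists, against 2.4 and 2.42 at other TSS, and the median rank fell in the top 54.9% and 45.5%. Both TERRA KD lists and neither scramble KD list had a peak at 3 pairs (0.372%, against 0.369% of all promoters), a share like the background, and no pair showed the opposite pattern (against 0.0104%). No ATRX peak in any list was found at 699 pairs (86.7%), against 90.2% of other TSS and 88.4% of the CpG-rich ones. ATRX peaks were present at 8.84% of the pairs with a G4 peak and 7.98% of those without one in TERRA KD replicate 1, and at 4.76% and 4.71% in replicate 2.

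The 3 pairs were Mad1l1/Nudt1, Cc2d1a/4930432K21Rik and H2ac24/H4bc24. Mad1l1 is a spindle checkpoint protein and Nudt1 hydrolyses oxidized purine nucleotides. At Mad1l1/Nudt1 the peaks ranked in the top 52.3% and 50.2% with 4 and 8 tags, and their summits lay at 233 and −348 bp from the midpoint. At Cc2d1a/4930432K21Rik they ranked in the top 38.7% and 2.47% with 8 and 26 tags, with summits at −167 and −222 bp, the only case among the 3 where both summits were on the same side. At H2ac24/H4bc24 the ranks were 32.4% and 45.8% with 7 and 12 tags. The histone genes of this family are near-identical copies, so the place of reads at that pair is uncertain. In scramble KD, the 7 pairs with an ATRX peak were Enkur/Thnsl1, Mrpl41/Pnpla7, Ciao1/Tmem127, Tmem68/Tgs1, Slc30a3/Dnajc5g, Pcid2/Cul4a and Pdxdc1/Mpv17l, of which Mrpl41/Pnpla7, Tmem68/Tgs1 and Pdxdc1/Mpv17l also had one in TERRA KD replicate 1. The scramble KD peaks had a −log10 p of 2.03 to 2.56. Their summits lay outside the region at Enkur/Thnsl1 (−864 bp), Tmem68/Tgs1 (707 bp) and Slc30a3/Dnajc5g (823 bp). So did the TERRA KD replicate 1 summits at Tmem68/Tgs1 (548 bp) and Pdxdc1/Mpv17l (563 bp).

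H3K9me3 peaks were nearly absent. The lists held one at 7 (0.868%) and 2 (0.248%) of the 806 in scramble KD and at 6 (0.744%) and 1 (0.124%) in TERRA KD. Other TSS had one in 1.61%, 1.05%, 1.69% and 1.08% of cases, and bidirectional promoters lay 0.861 points lower on average, lower in 4 of 4 lists (exact sign-flip permutation p = 0.13, the smallest possible, adjusted p = 0.643). Against CpG-rich other TSS the difference was −0.295 points, lower in 3 of 4 lists. With libraries matched by replicate number, the share in TERRA KD differed by −0.124 points in either replicate, which is 1 promoter each (exact permutation p = 0.667). No pair had a peak in both lists of only 1 condition, against 0.0364% of all promoters with peaks only in TERRA KD and 0.026% only in scramble KD.

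Miip/Fv1 was the single pair with an H3K9me3 peak in all 4 lists, a share of 0.124% against 0.13% of other TSS, which is like the background. Fv1 is a restriction factor against murine leukemia virus that derives from an endogenous retrovirus, and Miip is an inhibitor of cell migration. The peaks ranked in the top 17.4% and 25.5% in scramble KD and the top 20.9% and 26.6% in TERRA KD, with summits 811, 666, 944 and 309 bp to the right of the midpoint, on the Fv1 side, the first 3 outside the region. The pair also had ATAC and G4 peaks in all 4 lists. The other 9 pairs with any H3K9me3 peak were Zcchc3/6820408C15Rik (3 lists), Fam228b/Pfn4 (2 lists) and, in 1 list each, Gpc2/Stag3, Lypd4/Dmrtc2, 1700029J07Rik/Ufsp2, Chtf8/Utp4, Derpc/Utp4, Mtrr/Fastkd3 and Qtrt2/Ccdc191. Chtf8/Utp4 and Derpc/Utp4 share 1 stretch and count the same peak. Every pair with an H3K9me3 peak had an ATAC peak in the same condition and replicate, as did 95.8% to 97.9% of all pairs. Many of these H3K9me3 peaks only reached into the region. With the summit required inside, the mean share fell from 0.558% to 0.186% in scramble KD and from 0.434% to 0.062% in TERRA KD.

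Genes of housekeeping systems were frequent among the pairs. Against 8% of all genes, a bidirectional promoter served 26 of 78 mitochondrial ribosomal protein genes (33.3%), 41 of 130 genes of DNA repair and replication (31.5%), 11 of 37 aminoacyl-tRNA synthetase genes (29.7%), 33 of 114 genes of the respiratory chain and its assembly (28.9%), 21 of 93 genes of mediator, RNA polymerase and general transcription factor subunits (22.6%) and 26 of 67 histone genes (38.8%). Lower shares were found for 4 of 23 mitochondrial import genes (17.4%), 6 of 39 proteasome genes (15.4%), 12 of 85 cytosolic ribosomal protein genes (14.1%) and 2 of 20 genes of ATRX, DAXX and telomere maintenance (10%), namely Terf2ip and Wrap53. Few numbered Zfp genes (20 of 386, 5.18%), collagens (2 of 42, 4.76%) and developmental transcription factors (3 of 164, 1.83%) had one. These shares describe the annotation and were not tested.

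Peaks at these groups are given as counts and were not tested against the other pairs. Over all 806 pairs the shares were 95.8% to 97.9% for ATAC, and 47.4%, 67.6%, 53.3% and 7.82% for G4 in scramble KD 1 and 2 and TERRA KD 1 and 2. For ATRX they were 0.744%, 0.124%, 8.44% and 4.71% in the same order. The 41 DNA repair pairs had ATAC peaks in every list, and G4 peaks at 21, 20, 13 and 2 of them in scramble KD 1 and 2 and TERRA KD 1 and 2. They held 0 ATRX peaks in 3 lists and 2 in TERRA KD replicate 2. The 25 mitochondrial ribosomal pairs had G4 peaks at 7, 17, 6 and 0 and ATRX peaks at 1, 0, 3 and 2 of them. At the 34 respiratory chain pairs, G4 peaks numbered 10, 16, 17 and 1 and ATRX peaks 0, 0, 3 and 0. The 13 histone pairs had ATAC peaks in every list and G4 peaks at 4, 4, 0 and 2, with ATRX peaks at 0, 0, 3 and 1. None of these groups had an H3K9me3 peak in any list, where the share over all pairs was only 0.124% to 0.868%.

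The 9 textbook pairs that met the rule were open with 1 exception. Brca1, which repairs double-strand breaks, faces Nbr1, an autophagy receptor, and their promoter had ATAC peaks in the top 5.35%, 3.79%, 4.44% and 9.38% of the lists with no G4, ATRX or H3K9me3 peak in any. The summits of these ATAC peaks lay 526 to 573 bp towards Nbr1, inside the region but not between the TSS. Atm, the kinase of the DNA damage response, faces Npat, a coactivator of histone genes, and this promoter ranked in the top 1.07%, 0.309%, 0.911% and 0.747% for ATAC. It had G4 peaks in scramble KD 1 and TERRA KD 1, with summits 456 and 526 bp towards Npat. Mcm4, a subunit of the replicative helicase, and Prkdc, the DNA-dependent protein kinase, shared a promoter with ATAC ranks of 1.89%, 1.27%, 0.967% and 1.26%, and a G4 peak only in scramble KD replicate 2. Mrpl18/Tcp1, a mitochondrial ribosomal protein and a chaperonin subunit, ranked in the top 0.882%, 0.331%, 1.68% and 0.642% for ATAC.

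The exception was Col4a4/Col4a3, which encodes the collagen IV chains of basement membranes such as that of the kidney glomerulus. Its region had no ATAC peak in scramble KD replicate 1 and peaks in the top 42.1%, 35.3% and 49.5% of the other lists, and a low CpG ratio of 0.432. Psmb9/Tap1, of the immunoproteasome and the antigen peptide transporter, had G4 peaks in 3 lists, with ranks of 27.6%, 15.6% and 38.6%. Sirt3/Psmd13 had a G4 peak in TERRA KD replicate 1 only, and Ranbp1/Trmt2a in scramble KD replicate 2 only, although the latter holds the G4 motif printed above. Mrps12/Sars2 had a G4 peak in scramble KD replicate 2, at a rank of 94.7%, and an ATRX peak in TERRA KD replicate 1, at a rank of 27.8% with 5 tags, 532 bp towards Sars2.

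**Figure D4:**
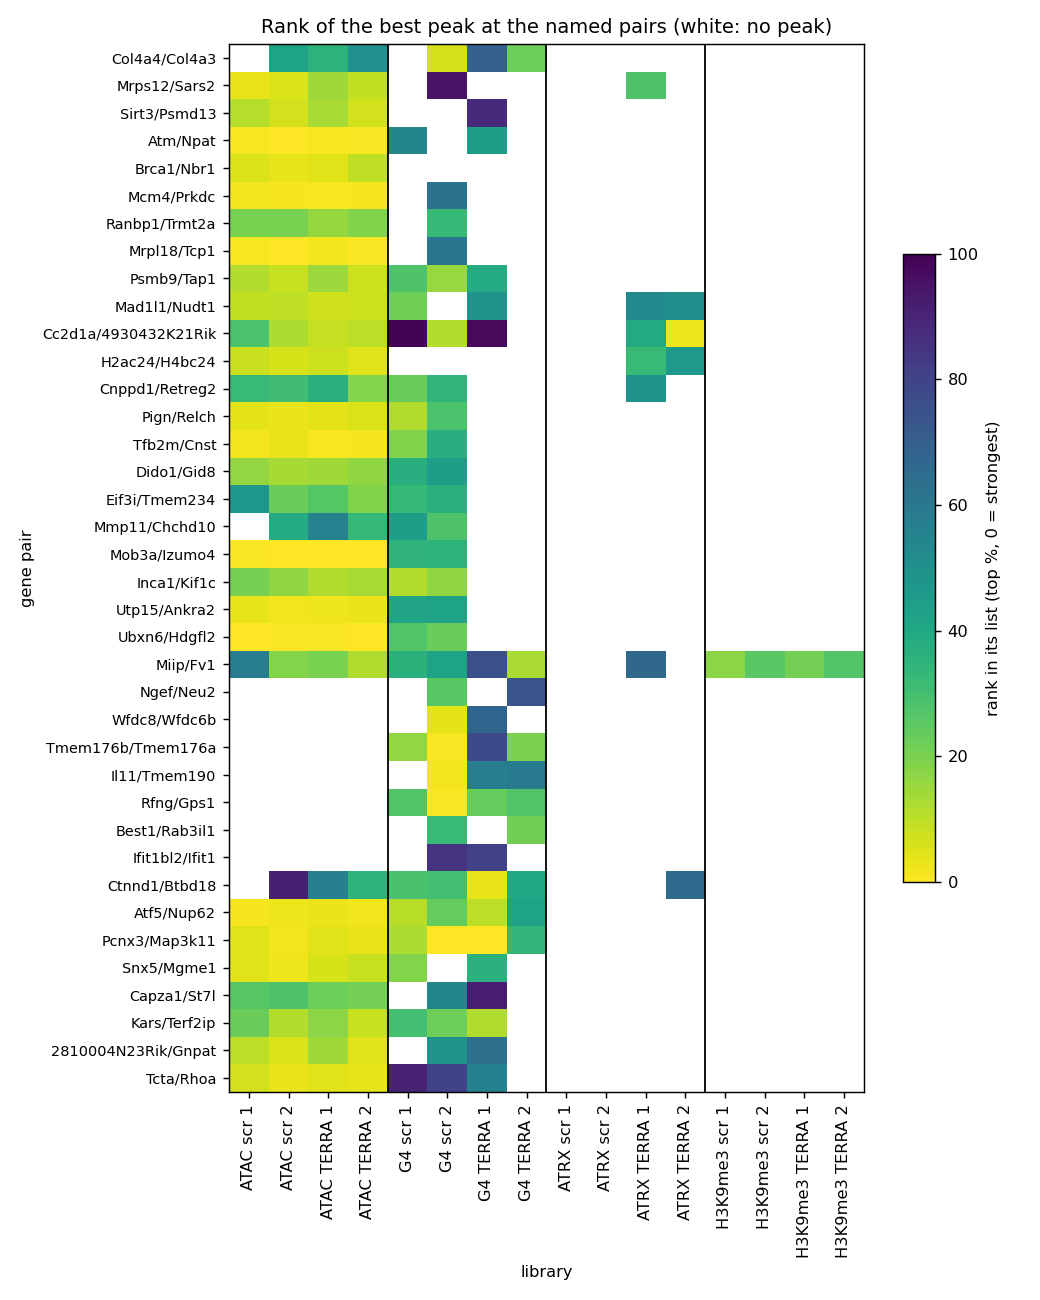
Rank of the best peak of 38 gene pairs, named by rule, in each of the 16 lists, as the percent of its own list (0 is the strongest, white is no peak). Rows run from the 9 textbook pairs at the top to the pairs with the shortest TSS distance at the bottom, and only Miip/Fv1 has H3K9me3 peaks.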

How the data were processed

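The authors trimmed the reads with Trim Galore 0.5.0, aligned them to GRCm38 (mm10) with Bowtie2 2.3.4.1, removed duplicates with SAMtools 1.9 and called peaks per library at a p of 0.01, with MACS 1.4.3 (ATRX, H3K9me3) or 1.4.2 (G4) against input and MACS 2.2.7.1 without input (ATAC). The deposited lists give a tag count per peak, a fold enrichment (a ratio to background), a score of −10 times log10 of the p and a false discovery rate in percent, the last not used here. The deposited ATAC lists give a pileup signal, a fold enrichment and a −log10 p. No value is scaled between libraries, so peaks were ranked within their own list by p (the top percent), and presence of a peak was compared. All calls depend on depth and on the inputs, which replicates partly share.

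Regions, promoters and motifs were computed from RefSeq GRCm38 with Python 3.11.15, numpy 2.4.6 and pandas 2.3.3. Shares of promoters with a peak were compared over libraries by exact permutation tests, 2 against 2 for the knockdown (smallest p 0.33) and by sign flips over 4 lists for the kind of promoter (smallest p 0.13), with Benjamini-Hochberg adjustment over 12 tests, so none could pass 0.05. The p-values measure only the spread between these libraries, which may be technical. The overlap and test functions were tested on simulated data. Genes were named as textbook pairs, as pairs with peaks in all 4, no or only 1 condition's lists in order of rank or distance, and as the closest pairs, leaving out chromosome 18 (12 pairs), and 1 pair so chosen is not reported here. Members and gene lists were chosen with earlier results of these data known, and the histone list was set to the annotation's symbols after the data were seen. Alternatives were a −log10 p of at least 5, equal numbers of top-ranked peaks, summits inside, 1000 bp windows, TSS at most 300 bp apart, CpG-rich other TSS, other TSS without a non-coding head-to-head gene, each library left out, and a replicate block.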

Additional observations from a re-analysis of the deposited data

Results flagged for a closer look

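For H3K9me3, libraries matched by replicate number gave changes of opposite sign at bidirectional promoters and at other TSS. At bidirectional promoters the change was −0.124 points in either replicate, which is 1 promoter each, and at other TSS 0.0814 and 0.0271 points. The numbers were not taken as pairing the samples, and the opposite signs depend on them. From scramble KD replicate 2 to TERRA KD replicate 1, both sets rose (0.248% to 0.744% of pairs, 1.05% to 1.69% of other TSS). From scramble KD replicate 1 to TERRA KD replicate 2, both fell (0.868% to 0.124%, and 1.61% to 1.08%). The difference of the changes was −0.178 points, with an exact permutation p of 0.33, the smallest that 2 against 2 libraries allow, so a difference was not shown.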

How the results depend on the processing

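Of 170 alternative values of 14 results, 140 were classed as the same, and the smallest exact permutation p among the alternatives was 0.13. For the tested differences this class means only that the sign was not reversed, since no p could pass 0.05. For the counts it means a ratio of at most 1.5 to the main count. The ATRX change was classed as the same although it fell from 6.14 points to 0.806 with equal numbers of top-ranked peaks. At a −log10 p of at least 5 it was 0.062 points. At a −log10 p of at least 5, bidirectional promoters minus other TSS turned to −3.4 points for G4 and −0.0369 for ATRX, the ATRX change minus that at other TSS to −0.0574 points, and the counts to 0 pairs for ATRX and 35 for G4. With equal numbers of top-ranked peaks these counts were 0 and 31, and the G4 difference −1.61 points. With CpG-rich other TSS only, the G4 difference was −9.17 and the G4 difference of changes 3.23 points, and with both sides CpG-rich, chosen after the data were seen, −9.22 and 1.21 points. Without TERRA KD replicate 2, chosen after the data were seen, the G4 difference was −12.3 and −11.4 points in these 2 comparisons and the difference of changes −4.63 and −4.82. Without that list, the G4 difference was −3.41 points at a −log10 p of at least 5 and −0.0174 with equal numbers of peaks, the counts were 37 and 33 pairs, and with equal numbers the G4 change was 2.92 and its difference of changes 0.0189 points. With TSS at most 300 bp apart, the H3K9me3 change was 0.0829 and its difference of changes 0.0286 points. The cause was not tested.

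Leaving out 1 library moved the ATAC change between −0.124 and 1.86 points, the ATAC difference of changes between −2.4 and 0.101, the H3K9me3 change between −0.434 and 0.186, the ATRX count between 3 and 65 pairs and the G4 count between 77 and 280. Without scramble KD replicate 1 the G4 count was 181, without scramble KD replicate 2 it was 107, and without TERRA KD replicate 1 the ATRX count was 38. The paired fit with a replicate block gave the same changes (0.868, −26.9, 6.14 and −0.124 points for ATAC, G4, ATRX and H3K9me3) with p of 0.5, 1, 0.5 and 0.5, where 0.5 is the smallest possible by exact sign flips, and altered no call. Same-numbered libraries deviated together with r of 0.246, 0.0701, 0.107 and 0.195 over 806 promoters, from 2 pairs only, so the numbers were not taken as pairing the samples.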
